A study of Mus musculus with 2 samples.

Results

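C-type lectin receptors are surface receptors that bind sugars and lipids of microbes and of dying cells. They were followed here across neutrophil-like and other groups of cells from bone surfaces of ovariectomized and sham-operated mice. The receptors were taken by gene symbol: Clec4n, Clec4d, Clec4e, Clec4a2, Clec5a, Clec7a and Clec12a, 7 genes in all. Of these, 6 were measured among 32285 genes, and all 6 had unique molecular identifiers (UMIs, each standing for 1 captured RNA molecule). Clec7a (Dectin-1) was not analysed here. GENCODE M21 gives it the biotype polymorphic pseudogene, and none of the 82 genes of that biotype had counts. The cells were labelled osteal macrophages, but most carried neutrophil markers. They came from SPF female BALB/c mice, aged 10 weeks at surgery, and were collected from femurs and vertebrae 4 weeks later by enzyme digestion and sorting with antibodies to CD11b, F4/80 and CD68. Cells of 1 pool of OVX mice carried hashtag 1, cells of 1 pool of sham mice carried hashtag 2, and both pools were run together in 1 single-cell library. Ovaries were removed in OVX mice and left in place in sham mice. With 1 pool per condition, no difference between OVX and sham has a replicate check, no p-value was made, and all intervals are 95% intervals of counting error only.

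Clec4n (Dectin-2), Clec4d (MCL) and Clec4e (Mincle) carry no signalling motif of their own and pair with the adaptor Fcer1g. The kinase Syk and the Card9, Bcl10 and Malt1 complex then act downstream and turn on cytokine and chemokine genes. Clec5a (MDL-1) pairs with another adaptor, Tyrobp (DAP12), and also signals through Syk. Clec4a2 (DCIR) and Clec12a (MICL) instead carry an inhibitory motif that recruits the phosphatases Ptpn6 and Ptpn11. In neutrophils and macrophages the activating receptors drive responses to fungi and mycobacteria, and the inhibitory receptors restrain them.

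The library held 2349 cells with a median of 4387 UMIs each and 17681092 UMIs on genes. Hashtag counts placed 1059 cells in OVX and 981 in sham, beside 1037 and 1084 cells stated as loaded. Another 78 cells had both hashtags and 231 had neither, and they were left out wherever OVX and sham are set side by side. The cells were grouped by expression with the receptors left out of the genes used. In every group, the stromal-like one included, 13 of 13 neutrophil markers reached 10 CPM (UMIs of all cells in a group, scaled to 1000000). That count therefore does not tell the groups apart. The summed level of these markers was 272248.4 CPM outside the stromal-like group and 3901 CPM in it. Against the label, S100a8, a calcium-binding protein of neutrophils, stood at 102914.4 CPM outside the stromal-like group, while Adgre1, which encodes F4/80, stood at 7.54 CPM and C1qa at 0.0819 CPM there. The groups were 21 cycling precursor-like cells (led by histone genes and Mki67), 291 granule immature-like cells (led by the granule genes Camp, Ltf and Ngp), 369 stefin-high cells (led by Retnla, Stfa2 and Cstdc5), 1106 mature neutrophil-like cells (led by Gm12840, Acod1, Hcar2 and Jaml), 233 cells led by Gm42418, 119 cells led by Pf4 and Arg1, and 210 stromal-like cells (led by Prg4 and Dcn). The Gm42418 group was not named as a cell type. Gm42418, a locus known to collect ribosomal RNA reads, took 209120.8 CPM there against 18792.6 CPM in the other cells.

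The group led by Pf4 and Arg1 held the most macrophage markers of the groups but was not named as macrophages. It held 10 of 15 macrophage markers at 10 CPM or more, against 1 to 4 in the other groups, with Adgre1 at 63.5 CPM, Csf1r at 89.9 CPM and C1qa at 0.977 CPM. Dendritic cell genes (H2-Aa at 618 CPM) also led it, and 3 of 8 dendritic cell markers reached 10 CPM. So did 5 of 6 monocyte markers and 2 of 5 megakaryocyte or platelet markers, a list that includes Pf4 and also Ppbp (845 CPM). The stromal-like cells, with Ptprc (the leukocyte antigen CD45) at 5.85 CPM, served as a measure of free RNA. Clec4n stood there at 1.40% of its level in the remaining cells, Clec4d at 2.25%, Clec4e at 2.40%, Clec4a2 at 1.29%, Clec5a at 1.30% and Clec12a at 0.369%. Other neutrophil genes ranged widely, with S100a8 at 0.707% and Camp at 30.5%. Stromal-like cells were deep, with a median of 19996.5 UMIs against 3993 in the remaining cells. The same number of free UMIs therefore gives a larger CPM in shallower cells, and these percentages can understate the background there. All 6 receptors were lowest in the stromal-like cells, with intervals apart from those of the next group.

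All 7 genes lie on chromosome 6 of GRCm38. Clec5a spans 40574894 to 40585821 on the minus strand. Clec4a2 (123106428 to 123143999, plus), Clec4n (123229843 to 123247021, plus), Clec4d (123262111 to 123275265, plus) and Clec4e (123281789 to 123289870, minus) lie within 183 kb. The gap between Clec4n and Clec4d is 15.1 kb and that between Clec4d and Clec4e 6.52 kb. Clec12a spans 129342691 to 129365303 on the plus strand. Clec7a lies 96.3 kb beyond it, from 129461591 to 129472779 on the minus strand. With both conditions pooled, the neighbours Clec4d and Clec4e were both higher at later neutrophil stages, but they differed between OVX and sham. The 150 bases before their RefSeq starts (GRCm38.p6) are therefore shown, 5′ to 3′ in the direction of each gene. Capitals mark the letters GAGGAA (the core that PU.1 and other Ets factors can bind) and TTGCNNAA (a C/EBP motif), each searched on both strands; a run of capitals in the other orientation is the complement.
Clec4d, chr6:123261957-123262106, plus strand: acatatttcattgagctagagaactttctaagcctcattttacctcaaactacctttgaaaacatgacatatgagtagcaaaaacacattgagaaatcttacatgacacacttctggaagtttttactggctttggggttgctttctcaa
Clec4e, chr6:123289872-123290021, minus strand: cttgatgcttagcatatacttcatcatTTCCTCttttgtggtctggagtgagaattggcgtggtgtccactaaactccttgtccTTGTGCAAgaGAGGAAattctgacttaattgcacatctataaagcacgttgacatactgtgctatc

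The Clec4d stretch held neither motif. The Clec4e stretch held GAGGAA 2 times and TTGCNNAA 1 time, the latter from 66 to 59 bases before the start and next to a GAGGAA from 56 to 51 bases before it. In the stretch before its RefSeq start Clec12a held 2 and 1 matches, Clec5a 2 and 0, and Clec4a2 0 and 0. The Clec12a stretch (129350094 to 129350243) lies inside the GENCODE span of the gene, with all 150 bases in annotated exons. The Clec4a2 stretch (123122540 to 123122689) also lies inside the span of its gene, with 68 bases in exons. In the Clec5a stretch 16 bases lay in exons, and in those of Clec4d and Clec4e 0 did. Over 32851 mouse promoters of the same length, 14.5% held GAGGAA and 5.46% held TTGCNNAA. RefSeq promoters were matched for 5 of the 6 measured receptors, all but Clec4n. The matches describe letters and not bound sites.

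Along the neutrophil-like groups and the Gm42418 group, the activating receptors of the Fcer1g family stood higher in the late groups. Clec4n, the receptor for fungal mannans, stood at 27.4 CPM (14.2 to 47.9) in cycling precursor-like cells and at 58.7 CPM (49.5 to 69.1) in granule immature-like cells. It then stood at 332 CPM (313 to 352) in stefin-high cells, 424 CPM (379 to 473) in the Gm42418 group and 748 CPM (722 to 775) in mature neutrophil-like cells. No neighbouring pair in this order had overlapping intervals. Clec4d, the receptor with the most UMIs, stood at 79.9 CPM (55.7 to 111) in cycling precursor-like and 295 CPM (274 to 317) in granule immature-like cells. Its level was 633 CPM (577 to 692) in the Gm42418 group, 909 CPM (877 to 942) in stefin-high cells and 1831 CPM (1790 to 1873) in mature cells. Clec4e, which binds mycobacterial cord factor and a protein of dead cells, followed a shallower course. It stood at 22.8 CPM (11.0 to 42.0), 92.1 CPM (80.5 to 105), 141 CPM (129 to 154), 149 CPM (123 to 179) and 234 CPM (220 to 249) in cycling, granule, stefin-high, Gm42418 and mature cells. The stefin-high and Gm42418 groups did not differ in Clec4e beyond their intervals. These levels pool both conditions, and 323 of the 369 stefin-high cells were OVX. In the 36 sham stefin-high cells Clec4n stood at 60.4 CPM (37.8 to 91.4), against 50.4 CPM (38.7 to 64.4) in sham granule immature-like cells. Sham Clec4e was lower in stefin-high cells, at 19.2 CPM (7.72 to 39.6) against 95.1 CPM (78.8 to 114). Sham Clec4d was higher there, at 532 against 309 CPM. Reads of this library come from the 3′ end of each RNA, so these levels do not scale with gene length. In the Gm42418 group, Gm42418 itself took 209120.8 CPM, against 20630.6 CPM in stefin-high cells. That lowers the CPM of every other gene there, and the place of this group in the orders above carries that limit.

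**Figure D1:**
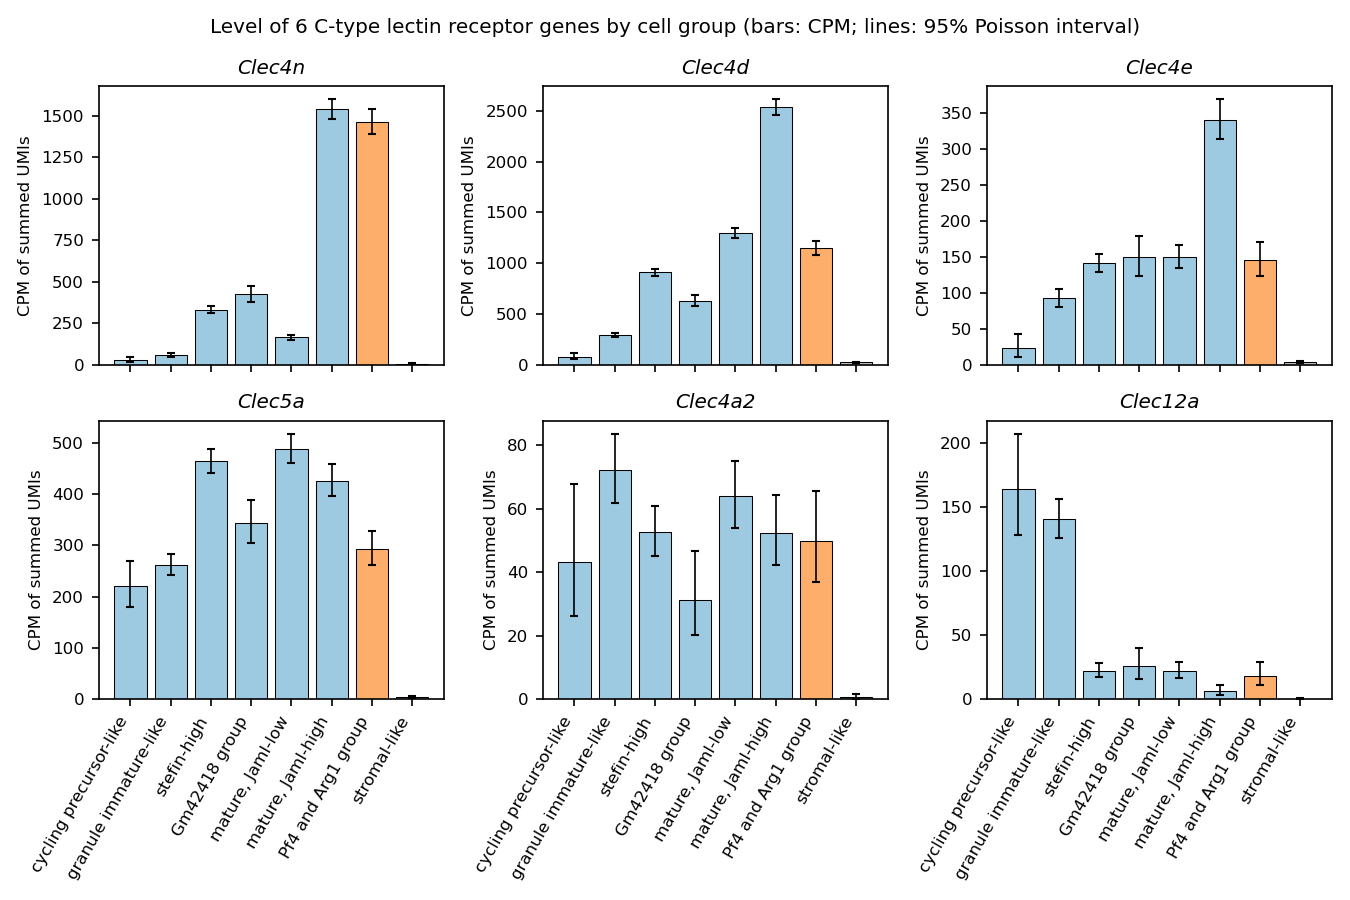
Level of each receptor gene (CPM of summed UMIs, 1 panel per gene with its own axis from 0) in the cell groups, with the mature cells parted into Jaml-low and Jaml-high; bars are CPM and lines are 95% Poisson intervals. Clec4n, Clec4d and Clec4e peak in Jaml-high mature cells among the neutrophil groups, Clec12a peaks in cycling precursor-like and granule immature-like cells, and every receptor is near 0 in stromal-like cells.

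Taking the stefin-high, mature and Gm42418 groups as late (1708 cells) and the cycling and granule groups as early (312 cells), Clec4n was 10.2-fold (8.67 to 12.0) higher in late cells. Clec4d was 5.12-fold (4.76 to 5.52), Clec4e 2.31-fold (2.01 to 2.66) and Clec5a 1.77-fold (1.64 to 1.92) higher. Clec12a was at 0.141 (0.117 to 0.168) of its early level, and Clec4a2 at 0.794 (0.670 to 0.944). The Gm42418 group was counted as late though it was not named as a cell type. It held the granule gene Ltf at 609 CPM, against 115 CPM in mature cells, and no late to early fold is given without it. At a 1.5-fold difference among genes at 50 CPM or more in either set, 4 of 6 receptors were higher and 1 was lower in late cells, where 27.5% of 2566 genes were higher and 25.4% lower. The median log2 difference was 1.02 for the receptors and 0.14 for all genes tested. The size of the Clec4n fold depended on the grouping: it was 4.78 with the receptors kept among the genes used for clustering and 17.5 with 30 neighbours. Within each condition Clec4n stood at 576 against 72.8 CPM in OVX cells (7.91-fold, 6.29 to 10.1) and at 535 against 50.5 CPM in sham cells (10.6-fold, 8.39 to 13.6). Clec4d was 6.56-fold (5.69 to 7.61) higher in late OVX and 5.72-fold (5.17 to 6.35) higher in late sham cells, and Clec5a 1.89-fold (1.65 to 2.16) and 1.75-fold (1.56 to 1.96). Clec4e differed more by condition, at 4.27-fold (3.23 to 5.75) in OVX and 1.58-fold (1.29 to 1.95) in sham cells. Clec4a2 was at 0.625 (0.484 to 0.808) of its early level in late sham cells, while its OVX ratio of 1.32 (0.954 to 1.86) could not be told from 1, so its pooled ratio does not describe both conditions. Clec12a was lower in late cells of each, at 0.106 (0.0793 to 0.141) in OVX and 0.199 (0.152 to 0.259) in sham.

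Within the mature cells the Leiden algorithm, run on the same graph, separated most cells into 539 cells low in Jaml (62.3 CPM), an adhesion molecule of leukocytes, and 558 cells high in it (446 CPM). Clec4n showed the widest contrast of the receptors. It stood at 164 CPM (148 to 182) in Jaml-low and 1541 CPM (1484 to 1601) in Jaml-high cells, a 9.38-fold difference (8.42 to 10.5). Clec4d stood at 1299 CPM (1253 to 1347) and 2540 CPM (2465 to 2615), a 1.96-fold difference (1.87 to 2.05). Clec4e stood at 149 CPM (134 to 166) and 340 CPM (313 to 369), a 2.28-fold difference (1.99 to 2.61). Clec5a was slightly lower in Jaml-high cells, at 426 CPM (396 to 458) against 488 CPM (460 to 517), and Clec12a fell from 22.1 CPM (16.4 to 29.0) to 6.28 CPM (3.13 to 11.2). Of 5 receptors at 50 CPM or more, 3 were higher by 1.5-fold and 0 lower in Jaml-high cells, where 23% of 2437 genes were higher and 7.63% lower. In OVX cells alone the Clec4n fold was 11.3 (9.03 to 14.3) and in sham cells alone 9.03 (7.92 to 10.3). The Jaml-high cells were shallower, with a median of 2639 UMIs against 3785.

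Clec5a was found in every group outside the stromal-like one. It stood at 222 CPM (180 to 270) in cycling precursor-like cells, 262 CPM (242 to 283) in granule immature-like cells and 344 CPM (304 to 389) in the Gm42418 group. Its levels in stefin-high cells, 465 CPM (442 to 488), and in mature cells, 462 CPM (442 to 483), did not differ beyond their intervals. With both conditions pooled, Clec5a came first of the receptors in cycling precursor-like cells and gave 39.6% of the receptor UMIs. Clec4d came first in granule immature-like, stefin-high and mature cells. In both early groups the intervals of the first 2 receptors overlapped, and the order differed in OVX cells alone. There Clec12a (190.5 CPM) stood above Clec5a (148 CPM) in cycling precursor-like cells. In OVX granule immature-like cells Clec5a (253 CPM) stood above Clec4d (224.5 CPM).

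The inhibitory receptors did not follow the activating ones. Clec12a, a receptor for uric acid crystals, stood at 164 CPM (129 to 207) in cycling precursor-like cells and 141 CPM (126 to 156) in granule immature-like cells, 2 levels whose intervals overlapped. In the late groups it stood at 17.4 CPM (13.6 to 21.9) in mature cells, 22.5 CPM (17.7 to 28.1) in stefin-high cells and 26.2 CPM (16.0 to 40.5) in the Gm42418 group. The early groups held 11.9% and 57.0% of its 605 UMIs. Clec4a2 stood between 31.4 CPM (20.1 to 46.8) in the Gm42418 group and 72.1 CPM (61.9 to 83.6) in granule immature-like cells, and outside the stromal-like cells all neighbouring intervals in its order overlapped. Clec4a2 belongs to a family of related genes, and how far reads are shared among them was not measured here. Of its relatives, Clec4a3 reached 13.7 CPM in the Pf4 and Arg1 group and Clec4a1 4.89 CPM.

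Clec4n was higher in the Pf4 and Arg1 group than in any other whole group, but not higher than in the Jaml-high subset. Clec4n reached 1466 CPM (1393 to 1542) there, 2.67 times (2.52 to 2.83) its level in the late groups as a whole, and near the 1541 CPM of Jaml-high cells. Clec4d stood at 1147 CPM (1083 to 1215), or 0.854 times (0.803 to 0.907) the late level, and Clec5a at 293 CPM (261 to 328), or 0.648 times (0.574 to 0.729). Clec4e was at 146 CPM (123 to 171), Clec4a2 at 49.8 CPM (37.1 to 65.5) and Clec12a at 18.6 CPM (11.2 to 29.0). Clec4n therefore came first among the receptors in these cells, with 47.0% of their UMIs against 31.4% in Jaml-high and 7.51% in Jaml-low cells. The group held 24.0% of all Clec4n UMIs in 5.07% of the cells. S100a8 was at 10364.8 CPM in it, and the part of neutrophil RNA or of cells captured together in these levels was not tested.

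Detection in single cells was compared after drawing every cell down to 1000 UMIs; 171 cells lay under that depth. Clec4d was then found in 25.4% (20.4 to 30.8) of granule immature-like, 67.2% (62.9 to 71.2) of Jaml-low and 87.3% (84.1 to 90.1) of Jaml-high cells, against 2.53% of stromal-like cells. Before thinning the shares were 63.9%, 91.1%, 93.7% and 35.7%, at median depths of 7404, 3785, 2639 and 19996.5 UMIs. Clec4n was found in 4.58% (2.46 to 7.70), 11.8% (9.18 to 14.95) and 53.8% (49.3 to 58.2) of these 3 neutrophil groups, in 53.1% (42.7 to 63.4) of Pf4 and Arg1 cells and in 1.01% of stromal-like cells. Before thinning its shares were 15.5%, 27.1%, 69.9%, 60.5% and 13.3%. Clec4e was found in 8.45% (5.49 to 12.3), 11.1% (8.49 to 14.1) and 26.2% (22.4 to 30.3) of the neutrophil groups in the same order, and in 0 of 198 stromal-like cells, which at this thinned depth allows a share of cells with a UMI of up to 1.85%. Before thinning its shares were 40.2%, 30.1%, 44.98% and 6.67%, the last being 14 of 210 stromal-like cells. Clec12a fell from 12.3% (8.74 to 16.7) of granule immature-like cells to 1.27% (0.676 to 2.16) of mature cells.

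A thinned cell had a UMI of 0.810 receptors on average in granule immature-like cells, 1.17 in stefin-high, 1.28 in Jaml-low and 2.06 in Jaml-high cells. The share of cells with 3 or more receptors was 3.87%, 11.4%, 7.57% and 28.4% in the same order, and 14.6% in Pf4 and Arg1 cells. No receptor was found in 45.4% of granule immature-like and 2.38% of Jaml-high cells. In Jaml-high cells Clec4d and Clec4e were found together in 22.8% of cells (19.2 to 26.7), where the product of their shares gives 22.9%. Clec4n and Clec4e were found together in 13.3% (10.4 to 16.6) against a product of 14.1%. In both pairs the product lay within the interval of the joint share. Elsewhere some pairs were found together more often than the product. In stefin-high cells these were Clec4n with Clec4d, at 12.5% (9.299 to 16.3) against 8.16%, and Clec4n with Clec4e, at 4.35% (2.505 to 6.97) against 1.98%. In granule immature-like cells Clec4d and Clec4e were together in 4.23% (2.20 to 7.26) against 2.14%, on 12 cells. The product has counting error of its own, which these intervals leave out. The stefin-high values pool both conditions, and after thinning Clec4n was found there in 20.1% of OVX and 0 of 36 sham cells.

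**Figure D2:**
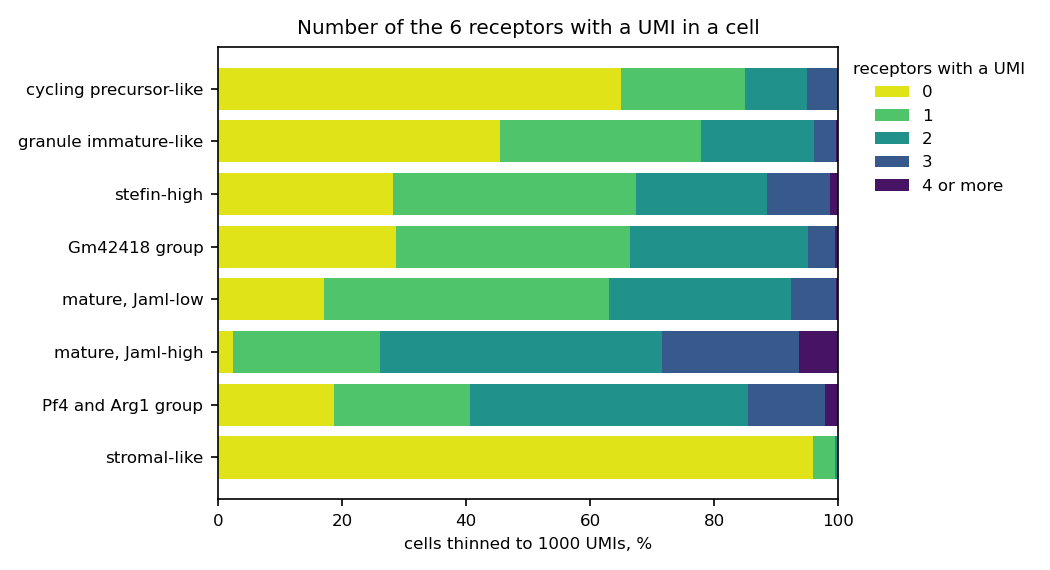
Share of cells (%, x axis) of each group by the number of the 6 receptor genes with a UMI, after thinning each cell to 1000 UMIs; colours run from 0 to 4 or more receptors. Cells with 3 or more receptors make up 28.4% of Jaml-high mature cells, 3.87% of granule immature-like cells and none of the 198 thinned stromal-like cells.

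The study compared cells of OVX and sham mice. Over all cells outside the stromal-like group Clec4e was higher in OVX cells, at 190 CPM (180 to 201; 1237 UMIs) against 118 CPM (109 to 129; 576 UMIs) in sham, a ratio of 1.60 (1.45 to 1.77). Clec12a was lower, at 34.3 CPM (29.9 to 39.1) against 65.0 CPM (58.1 to 72.6), a ratio of 0.527 (0.442 to 0.628). The other 4 receptors lay within 1.5-fold. Clec4n stood at 540 CPM against 520 CPM (OVX, then sham; ratio 1.04, 0.987 to 1.09), Clec5a at 403 and 385 CPM (1.05, 0.986 to 1.11), Clec4d at 1055 and 1126 CPM (0.937, 0.904 to 0.971) and Clec4a2 at 52.4 and 59.7 CPM (0.879, 0.749 to 1.03). Thus 1 of 6 receptors was higher by 1.5-fold, where 5.33% of 2459 genes were, and 1 was lower, where 13.9% of genes were. The call on Clec12a was lost when each cell or each cell group had equal weight, with log2 ratios of -0.46 and -0.30.

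**Figure D3:**
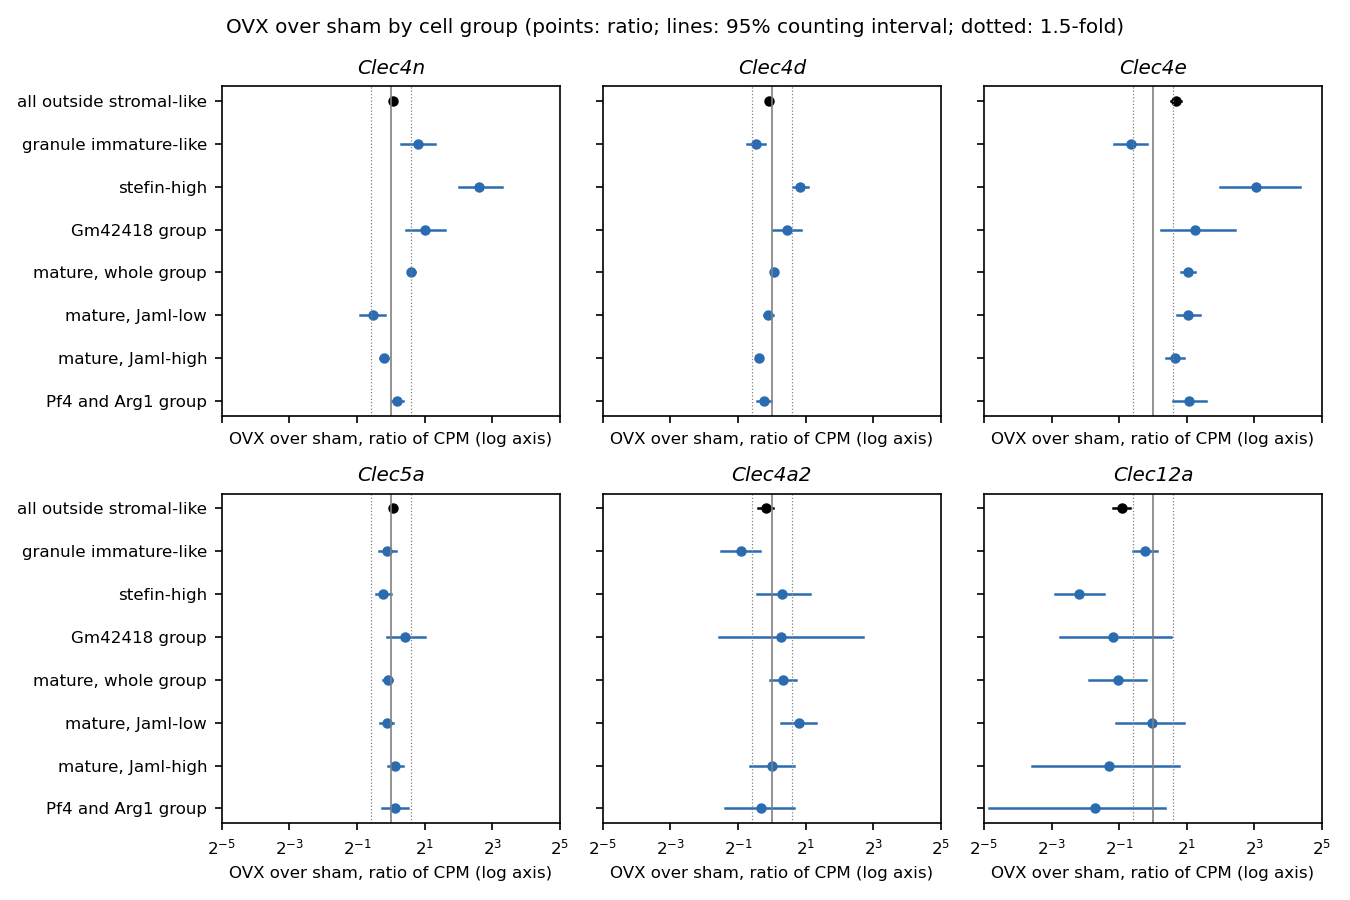
Ratio of OVX to sham CPM (log axis) for each receptor over all cells outside the stromal-like group (black) and within cell groups (blue); points are ratios, lines 95% counting intervals, and dotted lines mark 1.5-fold. Clec4e lies above 1 in every late group and in Pf4 and Arg1 cells and below 1 in granule immature-like cells, while Clec4n lies above 1 in the whole mature group and below 1 in each of its Jaml subsets.

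The makeup of the pools differed. Stefin-high cells were 30.5% (27.7 to 33.4) of OVX and 3.67% (2.58 to 5.04) of sham cells. Granule immature-like cells were 8.404% (6.80 to 10.2) and 15.4% (13.2 to 17.8), and mature cells 40.2% (37.3 to 43.2) and 60.9% (57.7 to 63.9). Pf4 and Arg1 cells were 3.40% (2.39 to 4.68) and 6.42% (4.97 to 8.14). Among mature cells 69.9% (65.4 to 74.3) of OVX and 39.5% (35.6 to 43.6) of sham cells were Jaml-high. The receptors were therefore compared within groups. A group's share and the pool it came from cannot be told apart, since each condition was 1 pool. Cells without a hashtag were also spread unevenly. They were 51 of 539 Jaml-low, 10 of 558 Jaml-high, 41 of 291 granule immature-like and 4 of 369 stefin-high cells. A rule of 80% of hashtag UMIs placed 956 cells in OVX and 1166 in sham, and the shares above are given under the main rule alone.

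By CPM, Clec4e was also higher in OVX cells within each late group, though 2 of these comparisons rest on few sham UMIs. OVX cells of the Jaml-low subset held 228 CPM (192 to 269) and sham cells 110 CPM (94.1 to 129), a ratio of 2.07 (1.64 to 2.60). In Jaml-high cells it stood at 393 CPM (356 to 432) and 248 CPM (211 to 290), a ratio of 1.58 (1.31 to 1.91). After thinning it was found in 32.03% (26.6 to 37.8) of OVX and 18.7% (13.6 to 24.6) of sham Jaml-high cells, and in 15.8% (9.81 to 23.6) and 8.58% (5.82 to 12.1) of Jaml-low cells. The mature group as a whole gave a ratio of 2.05 (1.79 to 2.35), and the Gm42418 group 2.36 (1.19 to 5.34, on 9 sham UMIs). In the Gm42418 group the thinned shares, 14.3% of OVX and 13.9% of sham cells, did not show this difference, and its OVX cells were deeper (medians of 2876 and 1216 UMIs). In stefin-high cells the ratio was 8.24 (3.97 to 20.6), but the sham side held 7 UMIs in 36 cells. Among Pf4 and Arg1 cells, OVX held 243 CPM (188 to 309) and sham 116 CPM (92.0 to 144), a ratio of 2.10 (1.495 to 2.94). Clec4e was found there in 26.7% (12.3 to 45.9) of 30 OVX and 14.3% (6.38 to 26.2) of 56 sham cells after thinning. These intervals overlap, and before thinning the shares were 41.7% and 39.7%. Granule immature-like cells went the other way, with 60.6 CPM (45.1 to 79.6) for OVX and 95.1 CPM (78.8 to 114) for sham, a ratio of 0.637 (0.450 to 0.891). Cycling precursor-like cells held 5.29 CPM (OVX) and 37.3 CPM (sham). Their ratio of 0.142 (0.0032 to 1.06), on 1 OVX and 8 sham UMIs, could not be told from 1.

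Clec4n differed in another way. In the mature group as a whole it was 1.53-fold (1.42 to 1.64) higher in OVX cells, at 964 against 632 CPM. In Jaml-low cells it was lower in OVX, at 130 CPM (103 to 162) against 188 CPM (167 to 211), a ratio of 0.692 (0.534 to 0.889). In Jaml-high cells OVX held 1469 CPM (1397 to 1543) and sham 1697 CPM (1597 to 1800), a ratio of 0.866 (0.801 to 0.936). By CPM neither subset showed the higher level of the whole group, and Jaml-high cells made up more of OVX than of sham mature cells. The part of cell makeup in that level was not tested. After thinning, Clec4n was found in 55.9% (49.9 to 61.8) of OVX and 51.7% (44.7 to 58.6) of sham Jaml-high cells. The share went against the CPM, so no order is read for Jaml-high cells. For stefin-high cells Clec4n was at 370 CPM (348 to 392.2) with hashtag 1 (OVX) against 60.4 CPM (37.8 to 91.4) with hashtag 2 (sham), a ratio of 6.12 (4.03 to 9.81). The sham value rests on 22 UMIs in 36 cells. Pf4 and Arg1 cells held 1634 CPM (1486 to 1794) with the OVX and 1430 CPM (1344 to 1521) with the sham hashtag, but after thinning Clec4n was found in 43.3% of OVX and 62.5% of sham cells, so no order is read there either.

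Clec4d was close between conditions in the mature group as a whole, with 1878 CPM for OVX and 1810 CPM for sham (ratio 1.04, 0.9902 to 1.09). It was lower in OVX in Jaml-high cells, at 2268 CPM (2178 to 2360) against 2959 CPM (2827 to 3094), a ratio of 0.767 (0.722 to 0.815). It was then found in 84.0% (79.2 to 88.1) of OVX and 91.9% (87.3 to 95.2) of sham cells after thinning. Jaml-low cells gave a ratio of 0.932 (0.856 to 1.01). In stefin-high cells Clec4d was higher in OVX, at 956 CPM (921 to 992) against 532 CPM (460 to 612), a ratio of 1.80 (1.55 to 2.09). The Gm42418 group gave 1.36 (1.03 to 1.81). Over the late groups as a whole the ratio was 0.781 (0.751 to 0.812), although none of the 3 whole groups pooled had a ratio below 1. Inside the mature group the Jaml-high ratio was below 1, and the interval of the Jaml-low ratio spanned 1. Stefin-high cells, where Clec4d was lower than in mature cells, made up more of the OVX pool. The pooled ratio does not describe each whole group, and the part of cell makeup in it was not tested.

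**Figure D4:**
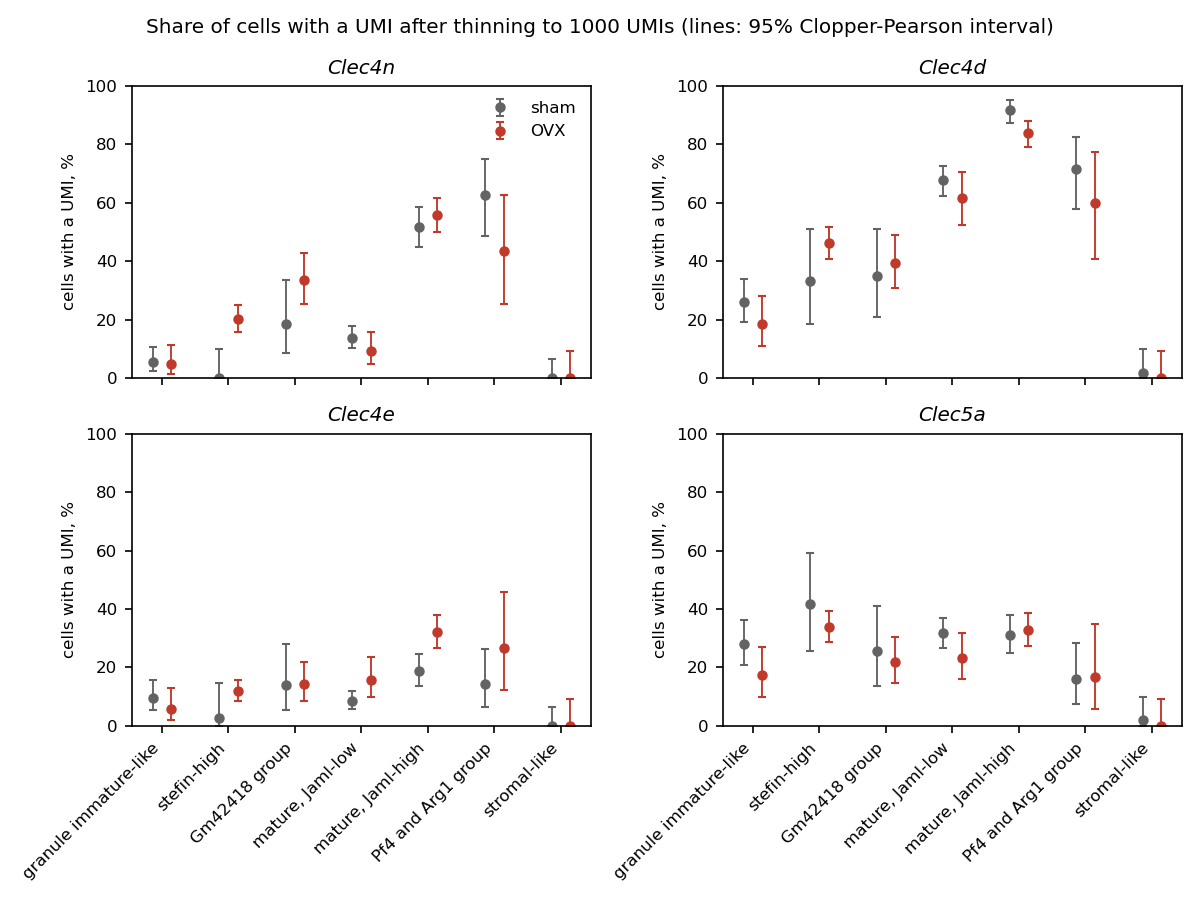
Share of cells (%, y axis) with a UMI of Clec4n, Clec4d, Clec4e or Clec5a in sham (grey) and OVX (red) cells of each group after thinning to 1000 UMIs; points are shares and lines 95% Clopper-Pearson intervals. In Jaml-high cells Clec4e is found in 32.03% of OVX and 18.7% of sham cells, and Clec4d in 84.0% and 91.9%.

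Clec12a was close between conditions in the early groups, with 140 CPM for OVX and 149 CPM for sham (ratio 0.935, 0.752 to 1.16). These groups made up a larger share of sham than of OVX cells, 16.3% (14.0 to 18.8) against 9.44% (7.75 to 11.4). In the late groups the level of Clec12a was 14.8 CPM (OVX) against 29.8 CPM (sham; ratio 0.497, 0.358 to 0.688), and in stefin-high cells at 16.2 CPM (12.0 to 21.5) and 74.1 CPM (48.8 to 108), the latter on 27 UMIs in 36 cells. After thinning it was found in 1.89% of OVX and 1.59% of sham late cells, and in 3.096% and 2.78% of stefin-high cells. These shares went against the CPM, so no order is read. Within the Jaml subsets its ratio could not be told from 1 (0.976, 0.470 to 1.91 in Jaml-low and 0.404, 0.0839 to 1.70 in Jaml-high cells). Clec5a was lower in OVX cycling precursor-like cells, at 148 CPM (98.5 to 214) against 266 CPM (201 to 345), a ratio of 0.557 (0.341 to 0.891) on 11 OVX and 9 sham cells. In the other groups outside the stromal-like one it stayed within 1.5-fold, with ratios from 0.853 (0.733 to 0.997) in stefin-high cells to 1.35 (0.933 to 2.005) in the Gm42418 group. Clec4a2 was lower in OVX granule immature-like cells, at 44.0 against 83.1 CPM (ratio 0.529, 0.353 to 0.776), and its ratio in mature cells was 1.25 (0.954 to 1.64). In Jaml-low cells it was higher in OVX, at 89.9 against 51.5 CPM (ratio 1.75, 1.22 to 2.50), and in Jaml-high cells the ratio was 0.999 (0.641 to 1.58).

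Counted against all genes, 2 of 5 receptors tested were higher by 1.5-fold in OVX mature cells (Clec4n and Clec4e) and 0 lower, where 9.38% of 2366 genes were higher and 4.86% lower. In stefin-high cells 3 of 6 were higher (Clec4n, Clec4d and Clec4e) and 1 lower (Clec12a, by CPM alone), where 18.7% and 12.5% of 2184 genes were. In granule immature-like cells 1 of 6 was higher (Clec4n) and 2 lower (Clec4e and Clec4a2), where 5.28% and 11% of 2330 genes were. There OVX cells held 87.9 CPM of Clec4n and sham cells 50.4 CPM, but it was found in 4.60% of OVX and 5.48% of sham cells after thinning, so no order is read. In Pf4 and Arg1 cells 1 of 5 was higher (Clec4e) and 0 lower, where 14.3% and 21.4% of 3417 genes were.

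The genes tested that carry or restrain the receptors' signals lay within 1.5-fold between conditions, over all cells outside the stromal-like group pooled. They were not compared between conditions within cell groups. Of 21 adaptor and proximal signalling genes, 9 were at 50 CPM or more, and 0 were higher and 0 lower by 1.5-fold, with a median log2 ratio of -0.02 beside -0.11 for all genes tested. Of all 2459 genes tested, 5.33% were higher and 13.9% lower, so few calls were to be had in lists this short. Fcer1g, the adaptor of Clec4n, Clec4d and Clec4e, had 1469 CPM for OVX and 1851 CPM for sham (ratio 0.793, 0.771 to 0.817). Tyrobp, the adaptor of Clec5a, stood at 2335 and 2265 CPM (1.03, 1.01 to 1.06), and Syk at 259 and 262 CPM (0.987, 0.917 to 1.06). Bcl10 had a ratio of 0.987 (0.894 to 1.09) and Malt1 of 1.25 (1.07 to 1.47), while Card9 was sparse, at 9.99 and 8.03 CPM. Of 8 inhibitory signalling genes, 4 were tested and 0 passed in either direction, with Ptpn6 at 0.971 (0.882 to 1.07) and Inpp5d at 0.949 (0.847 to 1.06). Of 19 target cytokines and genes, 11 were tested, 0 were higher and 3 were lower, where 5.33% and 13.9% of all genes were. These were Ptgs2 (0.313, 0.255 to 0.382), Ccl2 (0.336, 0.288 to 0.391) and Cxcl1 (0.463, 0.404 to 0.530), which make prostaglandin or attract monocytes and neutrophils. Their levels in the stromal-like cells were 311, 1654 and 5570 CPM, and in Pf4 and Arg1 cells 352, 617 and 348 CPM, all above the 20.3, 24.1 and 70.0 CPM of mature cells. The part of free RNA and of cell makeup in these ratios was not tested.

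Between the stages the same lists moved more, but so did genes in general. Of 2566 genes tested, 27.5% were higher in late cells and 25.4% lower. Of 9 adaptor and signalling genes tested, 4 were higher in late than in early cells (Syk, Prkcd, Vav1 and Bcl10) and 0 lower, with a median log2 difference of 0.54 beside 0.14 for all genes. Syk stood at 308 against 160 CPM (1.93-fold, 1.75 to 2.14), Bcl10 at 168 against 88.8 CPM (1.89-fold, 1.66 to 2.17) and Fcer1g at 1685 against 1670 CPM (1.01-fold, 0.976 to 1.04). The partners of Bcl10 lay under 50 CPM in both sets and were not tested. Card9 stood at 7.12 against 15.6 CPM (0.457, 0.305 to 0.690) and Malt1 at 42.2 against 47.4 CPM (0.891, 0.730 to 1.09). The complex therefore did not rise as a whole. Of 4 inhibitory genes, 1 was lower in late cells, near the share of all genes. It was Ptpn6, at 134 against 211 CPM (0.633, 0.573 to 0.700). Of 9 target genes tested, 8 were higher, among them Il1b at 355 against 60.5 CPM (5.87-fold, 5.04 to 6.88) and Ccl4 (12.7-fold, 9.41 to 17.5), with a median log2 difference of 1.53. Only the receptors were left out of the genes used for grouping, so genes of these lists could themselves shape the early and late groups. Their stage differences are therefore not independent of the grouping.

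Over 12 points (cell group by condition, with at least 20 cells), the genes whose log2 level was most like that of Clec4n were Mpeg1, Arl4c and Cxcl3 (Pearson's r of 0.982, 0.971 and 0.962). For Clec4d they were Tlr4, Ppt1 and Il1b (0.984, 0.976 and 0.974), and for Clec4e Fyb, Glipr1 and Snx20 (0.951, 0.936 and 0.9295). Clec5a was most like Plin2, Lyn and Cyth4 (0.9897, 0.9891 and 0.9876), Clec4a2 like Fcer1g, Ostf1 and Cyba (0.982, 0.979 and 0.974), and Clec12a like Chil3, Tecr and Cebpe (0.953, 0.941 and 0.938). The points share 1 library, and the stromal-like points, where all leukocyte genes are low, weigh on these values. Without them 10 points were left, and the genes nearest to Clec4n were Socs3, S1pr1 and Mpeg1 (0.982, 0.972 and 0.971), while r between Clec4n and Clec12a went from -0.02 to -0.91. Clec4d then had an r of 0.82 with Clec4n and 0.66 with Clec4e.

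Beyond the named receptors, 25 further genes have symbols that begin with Clec, of which 9 had no UMI and 5 reached 10 CPM in a group. Clec2d was highest in the Gm42418 group (61.5 CPM, 45.2 to 81.8) and Clec2i in cycling precursor-like cells (27.4 CPM, 14.2 to 47.9). Clec3a was seen in stromal-like cells alone, with 127 UMIs (23.2 CPM, 19.3 to 27.6). Clec4a3 and Clec16a were each at 13.7 CPM (7.48 to 23.0) in Pf4 and Arg1 cells.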

How the data were processed

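Counting was done by the authors in Cell Ranger against mm10 (version 6.0.0 in the file header, 6.0.1 in the processing notes, which also name featureCounts 1.5.0-p3), and UMI counts were deposited, without normalization, for the barcodes called as cells. Gene and barcode names, the other deposited values, served as labels. The separate hashtag sample was not used here. Condition came from hashtag counts alone (HTODemux, Seurat 5.3.0, R 4.3.3, positive quantile 0.99). Cells were clustered with scanpy 1.11.5 and igraph 0.11.9 (Louvain, resolution 0.35, 6 clusters) and with leidenalg 0.10.2 (Python 3.11.15) on counts scaled to 10000 per cell, 2000 variable genes without the receptors, 30 components and 15 neighbours. The cluster highest in Mki67 and Top2a was split into 2. No doublet was removed by expression, and cells with both hashtags stayed in the cell groups.

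Intervals are exact at 95% (Poisson for CPM, Clopper-Pearson for shares, binomial for ratios). Calls used 1.5-fold among genes at 50 CPM or more, and likeness log2(CPM + 10). The genes named are all receptors, the 3 genes most like each, leading genes of the groups, other Clec genes at 10 CPM, 8 signalling genes and list genes past 1.5-fold; Clec4a1 was added after its values were seen. The receptors and lists were chosen with earlier results of these data known. A gene of the signalling list is not reported here and was left out of its counts.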

Additional observations from a re-analysis of the deposited data

Results flagged for a closer look

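Several ratios of OVX to sham CPM pointed opposite ways in different cell groups, with counting intervals on opposite sides of 1. The difference between groups was not tested, because each condition was 1 pool. Clec4e was below 1 in granule immature-like cells (0.637) and above 1 in stefin-high (8.24), mature (2.05), Gm42418 (2.36) and Pf4 and Arg1 cells (2.10). Clec4n was below 1 in cycling precursor-like cells (0.103, on 1 OVX and 11 sham UMIs) and above 1 in granule immature-like (1.75), stefin-high (6.12), mature (1.53), Gm42418 (2.01) and Pf4 and Arg1 cells (1.14). Clec4d was below 1 in cycling precursor-like (0.284), granule immature-like (0.726) and Pf4 and Arg1 cells (0.853) and above 1 in stefin-high (1.80) and Gm42418 cells (1.36). The sham side of the stefin-high group held 36 cells, and the cycling precursor-like group 21 cells in all. For Clec4n in granule immature-like and in Pf4 and Arg1 cells, and for Clec4d in cycling precursor-like cells, the thinned shares of cells went against the ratio.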

How the results depend on the processing

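Clec4e stayed 1.5-fold higher in OVX and was the 1 receptor called higher under every alternative run, with a log2 ratio of 0.95 under equal weight per cell group. Clec12a (main log2 ratio -0.92) was at -1.18 with a hashtag rule of 80% of hashtag UMIs, and at -0.46 and -0.30 with equal weight per cell and per cell group, where 0 receptors were called lower. The log2 ratio of Clec4n was 0.25 with that hashtag rule, 0.21 over all cells, 0.16 without the 20 largest genes in the total and 0.52 with equal weight per cell group. For Clec4d it was 0.054, 0.0056 and 0.11 in the last 3 of these, -0.35 with equal weight per cell and -0.36 in the late groups. For Clec5a it was 0.21, 0.16 and -0.087, and -0.10 in the late groups, and for Clec4a2 0.14 there. Without a filter on low genes, 10.1% of genes were higher and 27.8% lower. The late to early ratio was 4.78 for Clec4n, 4.39 for Clec4d and 1.58 for Clec5a with the receptors kept among the variable genes. With 30 neighbours it was 17.5 (Clec4n), 12.8 (Clec4d), 4.45 (Clec4e), 1.16 (Clec4a2) and 0.182 (Clec12a). For Clec4n it was 7.37 with 1000 variable genes and 15.5 with equal weight per cell, and for Clec12a 0.109 with Leiden clustering. The cause of these shifts was not tested. Clec4n, Clec4d, Clec4e and Clec5a stayed above 1 and Clec12a below 1 in all 6 alternatives. The Jaml subsets, the late to early ratio as a measure, the late groups alone and leaving out the Gm42418 group were chosen after seeing the data. Thinning to 500 UMIs lowered 11 of 12 shares beyond their intervals. Depth limits Clec12a and Clec4a2 most, with 605 and 697 UMIs in all. No paired analysis was possible because each condition was 1 pool.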
